A study of Mus musculus with 4 samples.

Results

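The nuclear factor I (NFI) family consists of 4 transcription factor genes in the mouse, Nfia, Nfib, Nfic and Nfix, and their loci were examined in DNase-seq data of 3T3-L1 cells. The 4 genes were taken by symbol from 21829 protein-coding genes of GENCODE M21 (mm10), and a locus was the gene body plus 50 kb on each side. 3T3-L1 is an immortalized line of embryonic fibroblasts, widely used as a preadipocyte model because it can be differentiated into fat-storing cells. The labels give the strain as C57BL/6J and name no treatment, differentiation step, passage or genetic change. Both groups, biosample 1 and biosample 2, were therefore untreated as far as stated, and each was represented by 2 of the 4 libraries, combined before peaks were called. The labels number the biosamples as biological replicates 1 and 2, and the libraries within each as technical replicates. Beyond that number, nothing in the labels tells whether cells of the 2 biosamples were grown separately. Contrasts between the lists may reflect technique rather than biology. DNase I cuts DNA that is not covered by nucleosomes, and the deposited lists hold hotspots, which are stretches of raised cutting, and peaks, which are windows of 150 bp. Taken over all 4 loci, biosample 1 had 301 of its 298793 peaks and 229 of its 247031 hotspots there, and biosample 2 had 126 of its 97430 peaks and 109 of its 88636 hotspots.

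NFI proteins bind DNA as homodimers and heterodimers through a conserved N-terminal domain, and their full recognition site is a palindrome of a TTGGC arm and a GCCAA arm. They can activate or repress transcription and are known for opening chromatin in several stem and progenitor cell types. NFIA acts in glial development and in the brown fat gene programme, NFIB in lung and forebrain maturation, NFIC in tooth root formation and NFIX in the brain and in fetal muscle. As in many genes for developmental regulators, the NFI genes have several promoters and long introns.

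Each peak carries a whole-number score of up to 150 that the files do not define. The score was used only as a percentile within its own list, so that 90 means a score above that of about 90% of the peaks of that biosample, and it was never compared as a level between the lists. Fibroblast markers fitted the label: all 8 genes on the list, Col1a1 and Vim among them, had a start-site peak in both lists, against 0 of 5 mature adipocyte genes, 0 of 4 blood genes, 0 of 4 epithelial genes and 0 of 3 hepatocyte genes. Across all protein-coding genes the share was 51.8%. In biosample 1 only, the adipocyte genes Fabp4 (68.5th percentile) and Cidec (33.7th) and the blood gene Spi1 (51.2nd) had a start-site peak. Of 3 endothelial genes Pecam1 and Cdh5 had such a peak in both lists, as did 1 of 3 neuronal genes, Rbfox3. In material from many cells, a site open in few cells and a site weakly open in all of them cannot be told apart.

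The sequences of 10 peaks are shown because the description of the loci turns on them. They are the reference sequence of mm10 (RefSeq GRCm38.p6), plus strand, 5′ to 3′, in the window of the biosample 1 peak. Capitals mark matches, on either strand, to short recognition sequences that were searched in all peaks: TGACTCA or TGAGTCA for AP-1, TGTGGTT for RUNX, TTGGCA for an NFI half-site, CCGGAAG for ETS, GGGCGG for SP/KLF and CCAAT for the CCAAT box. A half-site can lie inside a full NFI palindrome.
The strongest start-site peak of Nfia, at chr4:97772256-97772405, lies upstream of the first annotated start and holds a CCAAT box in reverse.
Nfia start: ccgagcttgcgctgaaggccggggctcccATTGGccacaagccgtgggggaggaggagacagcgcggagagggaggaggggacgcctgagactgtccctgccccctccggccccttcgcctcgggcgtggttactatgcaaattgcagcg
Intronic peaks shared by both lists were ranked by the mean of their percentiles in biosample 1 and biosample 2, and the first of each gene is shown, with the second also for Nfib and Nfix. The first intronic peak of Nfia, at chr4:98004236-98004385, had none of the letters searched.
Nfia intron 4: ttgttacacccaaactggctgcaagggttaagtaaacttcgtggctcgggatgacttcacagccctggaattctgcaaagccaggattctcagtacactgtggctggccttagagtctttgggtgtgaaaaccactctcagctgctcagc
The first intronic peak of Nfib, at chr4:82435936-82436085, holds an AP-1 match and a CCAAT box in reverse.
Nfib intron 2: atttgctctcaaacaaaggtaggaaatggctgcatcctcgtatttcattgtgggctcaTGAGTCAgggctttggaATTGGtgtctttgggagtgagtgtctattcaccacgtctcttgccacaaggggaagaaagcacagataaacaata
A second strong peak of Nfib, at chr4:82511016-82511165, lies upstream of the main start-site group and holds a RUNX match.
Nfib upstream: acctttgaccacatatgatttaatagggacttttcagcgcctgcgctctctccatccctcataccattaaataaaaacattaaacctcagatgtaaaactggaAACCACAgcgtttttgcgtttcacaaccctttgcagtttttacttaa
The only Nfic start-site peak present in both lists, at chr10:81407716-81407865, holds an AP-1 match.
Nfic start: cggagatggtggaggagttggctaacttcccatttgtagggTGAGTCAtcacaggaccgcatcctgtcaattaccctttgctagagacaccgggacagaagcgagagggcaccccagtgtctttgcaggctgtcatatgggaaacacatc
The first intronic peak of Nfic, at chr10:81425436-81425585, had none of the letters searched.
Nfic intron 1: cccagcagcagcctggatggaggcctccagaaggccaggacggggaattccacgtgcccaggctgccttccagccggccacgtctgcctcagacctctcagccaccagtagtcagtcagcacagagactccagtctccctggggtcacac
The only peak of the 4 loci with a full NFI palindrome, at chr10:81382076-81382225, lies downstream of Nfic, and was chosen for this match.
Nfic downstream: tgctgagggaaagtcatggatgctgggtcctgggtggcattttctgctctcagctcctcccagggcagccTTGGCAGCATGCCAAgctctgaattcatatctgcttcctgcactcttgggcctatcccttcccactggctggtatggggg
The pair of intronic peaks of Nfix highest by the mean of their percentiles in both lists, at chr8:84744156-84744305 and chr8:84742776-84742925, come from 1 run of peaks in intron 2, and the first of them holds an NFI half-site.
Nfix intron 2a: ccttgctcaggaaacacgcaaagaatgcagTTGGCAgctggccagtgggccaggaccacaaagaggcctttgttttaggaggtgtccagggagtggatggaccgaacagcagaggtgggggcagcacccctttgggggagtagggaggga
Nfix intron 2b: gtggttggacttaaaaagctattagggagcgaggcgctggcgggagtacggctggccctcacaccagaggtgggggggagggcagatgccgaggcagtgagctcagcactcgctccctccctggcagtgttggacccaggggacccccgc
The first flank peak of Nfix away from protein-coding starts, at chr8:84664056-84664205, lies downstream of Nfix between Ier2 and the long noncoding RNA gene Gm26664, and holds a pair of ETS matches, an SP/KLF match that shares 1 base with one of them, and a CCAAT box.
Nfix downstream: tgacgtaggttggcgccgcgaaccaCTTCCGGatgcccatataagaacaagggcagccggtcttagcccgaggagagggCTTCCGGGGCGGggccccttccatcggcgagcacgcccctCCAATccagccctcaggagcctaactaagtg

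All 4 members had a peak within 1 kb of at least 1 protein-coding start site in both lists. Across the annotation, 51.8% of the 21829 protein-coding genes did, so a start-site peak by itself is common. The members have 22 protein-coding start sites, of which 15 had a peak in both lists (68.2%), against 48.6% of the 54355 protein-coding start sites of the annotation. Of the 22, 20 had a peak in biosample 1 and 15 in biosample 2. Start sites no more than 1 kb apart were joined, which gave 11 start-site groups. The 22 sites are therefore not separate units, and 1 peak can count for several. In biosample 2, 5 of the Nfia sites form a group with 1 peak, at the 21.1st percentile. The strongest start-site peak of each member was at the 98.3rd percentile for Nfia, the 96.8th for Nfib, the 95.1st for Nfix and the 91.5th for Nfic in biosample 1, and at the 96.6th for Nfia, the 93.9th for Nfic, the 84.2nd for Nfib and the 81.8th for Nfix in biosample 2. Over all genes with a start-site peak, the median was the 94.2nd percentile in biosample 1 and the 86.4th in biosample 2, so the members lay on both sides of the typical open gene.

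Nfia lies on the plus strand at chr4:97772734-98118874. Its most upstream start site, that of transcript Nfia-208, had 4 peaks in biosample 1 and 3 in biosample 2. The highest score there was 143 in biosample 1, at the 98.3rd percentile of that list, and 85 in biosample 2, at the 96.6th percentile of its own. The biosample 1 maximum was centred 404 bp upstream of the start, and the biosample 2 maximum was another peak, centred 616 bp downstream. Both positions were peaks in both lists. The next group, 4.87 kb downstream, holds the starts of Nfia-201 to Nfia-205 and that of the gene E130114P18Rik. Its strongest peak was at the 75.1st percentile in biosample 1 and at the 21.1st in biosample 2, centred within 12 bp of a start in each. It was therefore called in both lists but ranked low in biosample 2. The start of Nfia-207, 107 kb inside the gene, had no peak in either list.

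Nfib lies on the minus strand at chr4:82290173-82705750. Its far upstream start, of Nfib-212, had 1 weak peak in biosample 1, with a score of 29 at the 3.03rd percentile, and none in biosample 2. The main group, 199.98 kb downstream, holds the starts of Nfib-201 to Nfib-206. It had 6 peaks in biosample 1 and 3 in biosample 2, the strongest with a score of 139 (96.8th percentile) in biosample 1 and 60 (84.2nd percentile) in biosample 2. In biosample 1 the whole group lay under a single hotspot of 3512 bp, the widest of the locus, against 2 hotspots of 911 bp together in biosample 2. The 3 peaks of biosample 2 all met biosample 1 peaks, and the biosample 1 peaks without a partner lay at and downstream of the starts.

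Nfic lies on the minus strand at chr10:81396186-81455635 and had the most uneven start sites. The most upstream start, of Nfic-207, had no peak in either list. The group of Nfic-204, 24.6 kb downstream, had a strongest score of 112 in biosample 1 (84.0th percentile) and no peak in biosample 2. Likewise, the group of Nfic-201, Nfic-202 and Nfic-203 had a strongest score of 101 in biosample 1 (77.6th percentile) and no peak in biosample 2. The start of Nfic-205, 48.0 kb inside the gene, was the only one of the 6 with a peak in both lists, with a score of 127 in biosample 1 (91.5th percentile) and 77 in biosample 2 (93.9th percentile). This is the peak with the AP-1 match printed above, centred 150 bp upstream of that start in biosample 1. It also lies in intron 5 of the longer transcripts, so a promoter of Nfic-205 and an intronic element cannot be told apart in these lists.

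Nfix lies on the minus strand at chr8:84699876-84800344, and all 5 of its start sites had a peak in both lists. The upstream group, of Nfix-201, Nfix-202 and Nfix-205, had a strongest score of 111 in biosample 1 (83.4th percentile) and 26 in biosample 2 (35.4th percentile). The group of Nfix-203 and Nfix-204, 26.0 kb downstream, ranked higher in both, with 135 in biosample 1 (95.1st percentile) and 57 in biosample 2 (81.8th percentile). The start-site group richest in CpG did not carry the strongest peak at Nfia, Nfic and Nfix. The observed-to-expected CpG ratio of the 1 kb around the start was 0.933 at the second Nfia group, 0.810 at the Nfic-204 group and 1.12 at the upstream Nfix group, against a median of 0.561 over all genes, and another group of the same gene had the strongest peak in each list. The Nfic-204 group has no rank in biosample 2, where it had no peak. At Nfib the CpG-rich main group, with a ratio of 0.836, also had the strongest peak.

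**Figure D1:**
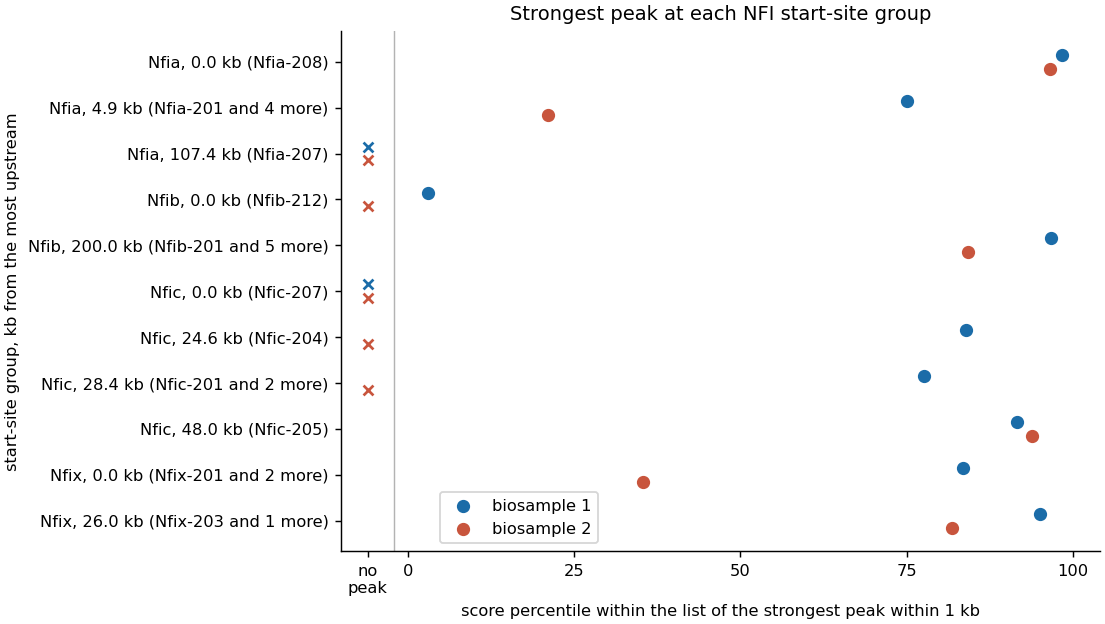
Score percentile, within each list, of the strongest peak within 1 kb of each of the 11 NFI start-site groups (rows, labelled by gene, distance in kb from the most upstream start, and transcripts), for biosample 1 (blue) and biosample 2 (red). Crosses at the left stand for no peak: 2 groups had none in either list, and 3 more had one in biosample 1 only.

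Introns were the largest class of place in both lists by count. The gene body took up 346 of 446 kb of locus at Nfia and 416 of 516 kb at Nfib. At Nfic it was 59.5 of 159 kb, and at Nfix 100 of 200 kb. The counts were not set against the length of each class or the places of the whole list, so they show no excess in introns. Of the 301 peaks of biosample 1, 164 were intronic, 65 lay in downstream flanks, 42 in upstream flanks, 27 at start sites and 3 in exons. Of the 126 of biosample 2, 60 were intronic, 32 in downstream flanks, 18 in upstream flanks, 14 at start sites and 2 in exons. Intron 2, which follows the exon that encodes most of the DNA-binding domain, is the longest intron in the transcripts compared here (Nfia-202, Nfib-201, Nfic-203 and Nfix-201). It held 24 peaks of biosample 1 and 9 of biosample 2 in Nfia (173 kb), 21 and 7 in Nfib (115 kb), 6 and 2 in Nfic (10.6 kb), and 18 and 10 in Nfix (43.8 kb). Per 100 kb of intron 2, this was 13.9 and 5.21 in Nfia, 18.3 and 6.11 in Nfib, 56.7 and 18.9 in Nfic, and 41.1 and 22.8 in Nfix, biosample 1 before biosample 2. The short first introns of Nfia and Nfib were the densest of their genes in biosample 1, with 5 peaks in 5.09 kb and 6 peaks in 5.96 kb, and neither held a peak in biosample 2.

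The first intronic peak of Nfia by mean percentile was in intron 4 of Nfia-202, 232 kb from the most upstream start, with a score of 144 in biosample 1 (98.6th percentile) and 58 in biosample 2 (82.6th percentile). It was also inside the widest hotspot of that locus in biosample 1, which spanned 1859 bp. The next, at chr4:97775156-97775305, lay between the first and second start-site groups, at the 94.2nd percentile in biosample 1 and the 72.7th in biosample 2. A peak in intron 7, at chr4:98061236-98061385, was at the 86.7th and the 80.0th percentile of the biosample 1 and biosample 2 lists, and lay in the widest hotspot of the locus in biosample 2, of 646 bp. These 3 peaks were all found in both lists.

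In Nfib the first intronic peak by mean percentile was the AP-1-bearing one in intron 2, at the 98.6th percentile in biosample 1 and the 94.7th in biosample 2. The peak with the RUNX match, 5321 bp upstream of the main start-site group and inside the first intron of the long transcript Nfib-212, followed at the 96.4th percentile in biosample 1 and the 87.7th in biosample 2. A further peak of intron 2, at chr4:82447376-82447525, was at the 92.4th percentile in biosample 1 and the 90.1st in biosample 2. Neither list had a peak in the 50 kb upstream of Nfib. Downstream, 7 peaks of biosample 1 ran over 2790 bp and 4 of biosample 2 over 1350 bp, close together in the flank, and the widest biosample 2 hotspot of the locus, of 1725 bp, lay there.

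By the mean percentile of both lists, the first intronic peak of Nfic was in intron 1, 1604 bp downstream of the starts of Nfic-201 to Nfic-203, at the 96.0th percentile in biosample 1 and the 71.5th in biosample 2. It was the strongest in biosample 1 but not in biosample 2. The widest biosample 2 hotspot of the locus, of 960 bp, covered it. So although the starts of that group had no peak in biosample 2, the intron just behind them did. Further intronic peaks were at chr10:81429656-81429805, at the 92.4th percentile in biosample 1 and the 73.9th in biosample 2, which was the higher of these in biosample 2, and at chr10:81432996-81433145, at the 89.2nd in biosample 1 and the 70.3rd in biosample 2, the last with 3 CCAAT boxes in reverse.

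Nfix carried the intronic run with the most peaks in either list. In intron 2, 7 peaks of biosample 1 lay within 3570 bp (chr8:84742256-84745825), each no more than 1 kb from the next, and 6 of them met a biosample 2 peak. Their scores were 134, 143, 127, 139, 133, 66 and 88, from the 51.2nd to the 98.3rd percentile. Biosample 2 had 6 peaks within 2030 bp there (chr8:84742236-84744265), all between the 78.1st and the 96.3rd percentile, under its widest hotspot of the locus, of 2601 bp. None of the peaks of the run held an AP-1 match in either list. One of the 6, at chr8:84742996-84743145, met no biosample 1 peak although it was at the 80.0th percentile of the biosample 2 list, and it lay inside a biosample 1 hotspot. It was the strongest peak of any NFI locus that biosample 2 had and biosample 1 did not. The strongest such peaks were at the 18.6th percentile of biosample 2 at Nfib (chr4:82248916-82249065) and at the 13.9th at Nfia (chr4:97927216-97927365), and Nfic had none. The third intronic peak of Nfix, at chr8:84709356-84709505 in intron 8 of Nfix-201, was at the 95.5th percentile in biosample 1 and the 90.1st in biosample 2.

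Flank peaks more than 1 kb from other protein-coding starts were named in the same way. The first of Nfia, at chr4:97751156-97751305 upstream, was at the 90.1st percentile in biosample 1 and the 71.5th in biosample 2, and the second, at chr4:97745916-97746065, was at the 68.5th in biosample 1 and had no partner. At Nfib the first, at chr4:82249636-82249785 downstream, was at the 90.1st percentile in biosample 1 and the 80.0th in biosample 2, and the second, at chr4:82288236-82288385, at the 87.7th in biosample 1 and the 76.0th in biosample 2. Those of Nfic were at chr10:81354816-81354965, at the 91.1st percentile in biosample 1 and the 60.5th in biosample 2, and at chr10:81395276-81395425, at the 81.1st in biosample 1 and the 42.1st in biosample 2. The second of these overlapped an annotated untranslated region of Smim24. Those of Nfix ranked highest of the 4 loci, with the printed peak beside Gm26664 at the 99.5th percentile in biosample 1 and the 99.6th in biosample 2, and a peak at chr8:84661656-84661805 at the 97.2nd in biosample 1 and the 93.5th in biosample 2. The latter overlapped an annotated untranslated region of Ier2. Both Nfix peaks belonged to a run of 11 biosample 1 peaks around the Ier2 start. Which gene the flank peaks serve was not tested.

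**Figure D2:**
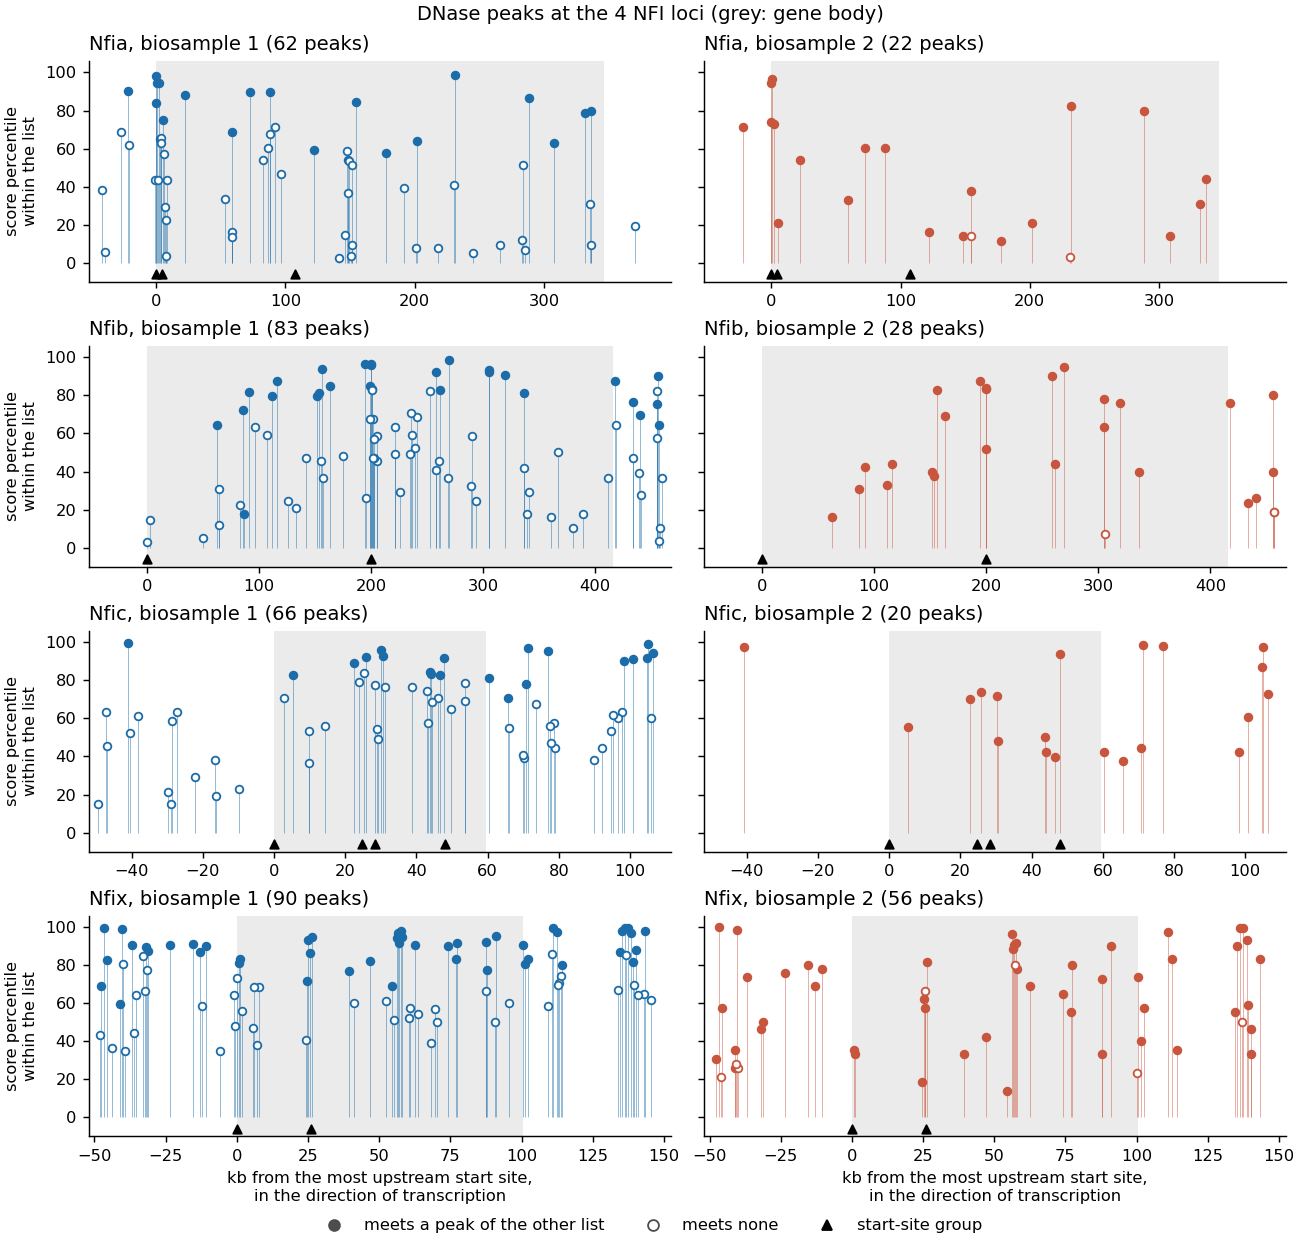
Every peak of the 4 NFI loci by distance from the gene's most upstream start site in kb (x axis, in the direction of transcription) and score percentile within its list (y axis), biosample 1 at the left and biosample 2 at the right. Filled points meet a peak of the other list, open points do not, triangles mark start-site groups and grey is the gene body. Nfix has 90 peaks in biosample 1 and 56 in biosample 2, while the other 3 loci thin out more.

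The number of peaks per locus set Nfic and Nfix apart from Nfia and Nfib. Nfix had 44.9 peaks per 100 kb in biosample 1 and 27.9 in biosample 2, and Nfic 41.4 and 12.5, while Nfib had 16.1 and 5.43 and Nfia 13.9 and 4.93. The median over all protein-coding loci was 18.3 in biosample 1 and 6.33 in biosample 2. Among all genes, Nfix was at the 96.0th percentile of density in biosample 1 and the 99.6th in biosample 2, Nfic at the 94.2nd and the 87.7th, Nfib at the 42.6th and the 42.4th, and Nfia at the 35.5th and the 38.9th. Among the 4983 genes with a body of at least 50 kb, the medians were 16.0 and 5.31, and Nfib was above both while Nfia was below both. Flanks weigh more in short genes. Over gene bodies alone the densities were 15.6 and 5.78 at Nfia and 16.4 and 5.05 at Nfib, against medians of 15.8 and 4.35. The bodies of Nfic, at 45.4 and 15.1, and of Nfix, at 40.8 and 24.9, stayed dense. All 4 members were thus above the median in biosample 2. Among gene bodies, Nfic was at the 86.0th percentile in biosample 1 and the 82.8th in biosample 2, and Nfix at the 83.7th and the 91.0th. The dense loci of Nfic and Nfix also hold more genes. The Nfic locus has start sites of 11 other protein-coding genes, 6 of them with a peak in both lists, and the Nfix locus of 9, with 8 in both, among them Calr, a chaperone of the endoplasmic reticulum, at the 99.9th percentile in each list. The Nfia locus has 1, E130114P18Rik, and the Nfib locus none.

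**Figure D3:**
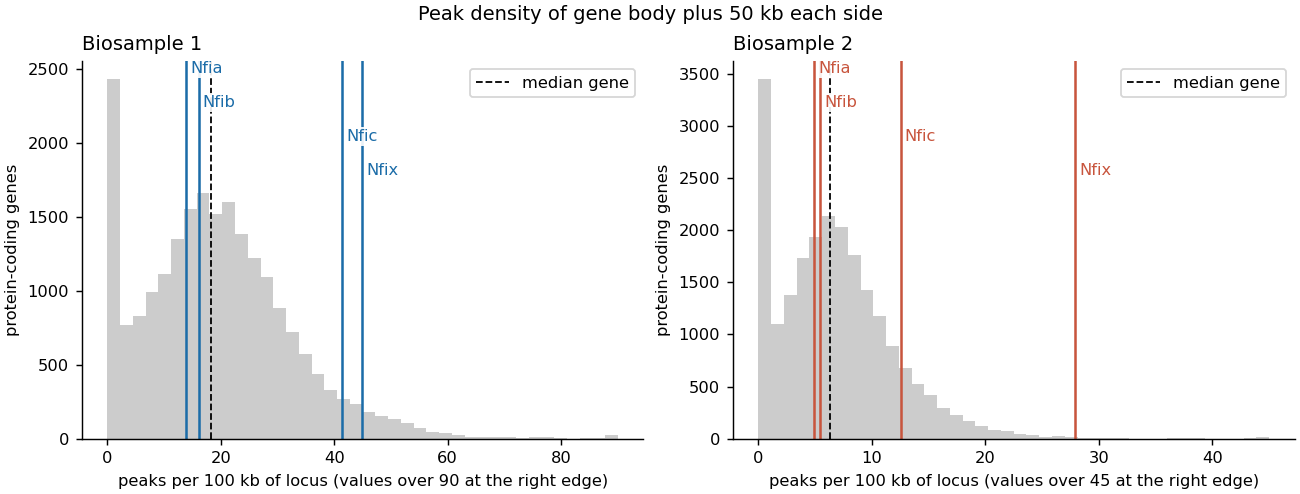
Number of protein-coding genes (y axis) by peaks per 100 kb of locus (x axis) in biosample 1 (left) and biosample 2 (right), with the 4 NFI loci as coloured lines and the median gene as a dashed line. Nfib (16.1 and 5.43) and Nfia (13.9 and 4.93) lie under the medians of 18.3 and 6.33, biosample 1 before biosample 2, and Nfic and Nfix in the upper tail.

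The family had 2.39 times as many peaks in biosample 1 as in biosample 2, against 3.07 times for the whole lists, and 2.10 times as many hotspots, against 2.79 times. The peak ratio was 2.82 at Nfia, 2.96 at Nfib, 3.30 at Nfic and 1.61 at Nfix, so 3 of the 4 loci were below the ratio of the lists and Nfix was furthest below it, with 90 peaks in biosample 1 and 56 in biosample 2. Without peaks within 1 kb of another gene's start site the counts at Nfix were 65 and 35, a ratio of 1.86, and at Nfic 46 and 11, a ratio of 4.18. The contrast between the lists depends on place. Within 1 kb of a protein-coding start the lists had 39791 and 21132 peaks on the chromosomes used, and the NFI loci 72 and 44. Further away the lists had 258421 and 76128, and the NFI loci 229 and 82. In both places the NFI counts differed by a smaller factor than those of the lists. The ratios of single members were not set beside list ratios matched for place. With 1 list for each biosample, the ratios have no replicate check.

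Of the 301 biosample 1 peaks, 114 met a biosample 2 peak by at least 1 bp, or 37.9% (95% Wilson interval 32.6 to 43.5), against 30.4% of the list. Of the 126 biosample 2 peaks, 115 met a biosample 1 peak, or 91.3% (85.0 to 95.1), against 93.5% of the list. The Wilson intervals given here cover counting error only, and neighbouring peaks are not independent. By member, the share in biosample 1 was 52.2% at Nfix (42.0 to 62.2), 32.5% at Nfib (23.4 to 43.2), 32.3% at Nfia (22 to 44.6) and 30.3% at Nfic (20.6 to 42.2). Nfix thus stood above the other members over peaks of all strengths, but not among peaks of like strength, as given below. All 20 Nfic peaks of biosample 2 met a biosample 1 peak. The 11 biosample 2 peaks without a partner, 7 of them at Nfix, all lay inside a biosample 1 hotspot. Over the whole biosample 2 list, 4952 of 6311 such peaks did (78.5%).

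Whether a biosample 1 peak was also found in biosample 2 went with its score. Shared peaks had a median percentile of 88.7 and the others 50.2. Above the 75th percentile of the list, 98 of 113 NFI peaks were shared (86.7%, against 84.7% of the list), from the 50th to the 75th percentile 15 of 96 (15.6%, 9.70 to 24.2, against 29.7%), from the 25th to the 50th 0 of 55 (against 4.98%) and below the 25th 1 of 37 (2.70%, against 1.5%). Between the 50th and the 75th percentile the NFI loci thus shared a smaller part of their peaks than the list, and above the 75th a like part. Nfix had 48 of its 90 peaks above the 75th percentile and none below the 25th, while Nfia had 14 of 62 above and 17 of 62 below. Above the 75th percentile, 43 of 48 peaks were shared at Nfix, 14 of 14 at Nfia, 22 of 26 at Nfib and 19 of 25 at Nfic. From the 50th to the 75th it was 4 of 32 at Nfix, 6 of 20 at Nfia, 4 of 19 at Nfib and 1 of 25 at Nfic. Across the 114 shared peaks, the percentiles of the biosamples ran together, with a Spearman rho of 0.928, and by member it was between 0.838 at Nfic and 0.948 at Nfib. These values describe peaks of the same loci, each list made from pooled libraries.

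**Figure D4:**
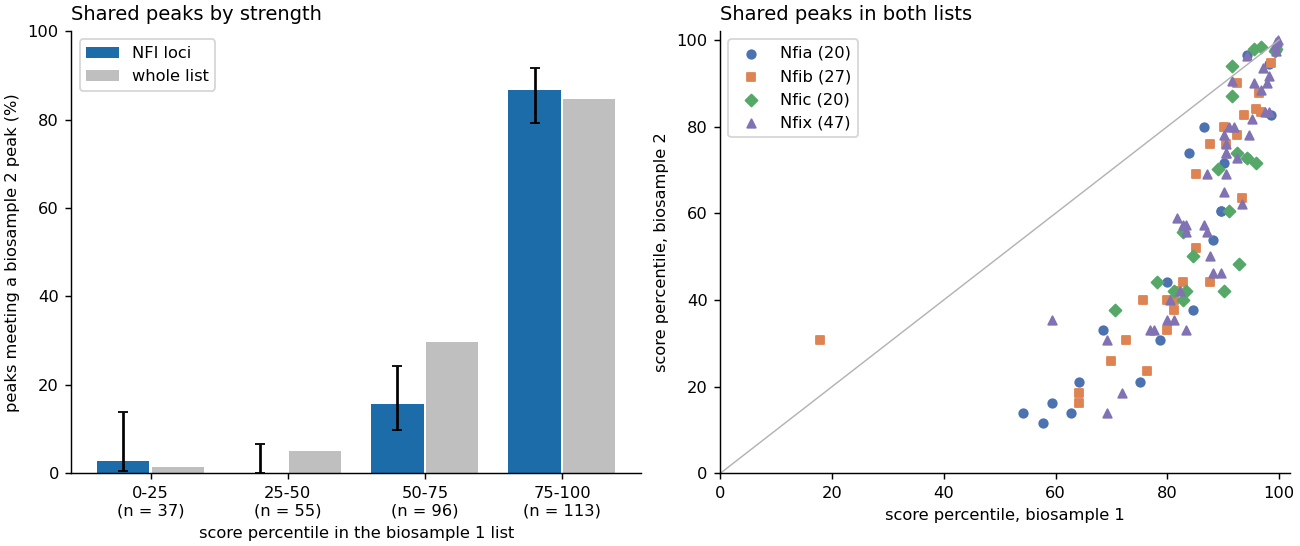
Left, share of biosample 1 peaks that met a biosample 2 peak (%), by score percentile in the biosample 1 list, for the NFI loci (blue, with 95% Wilson intervals) and the whole list (grey). Right, score percentile of each shared NFI peak in biosample 1 (x axis) and biosample 2 (y axis), with the line of equal percentile. Sharing at the NFI loci is 86.7% above the 75th percentile and 15.6% between the 50th and the 75th.

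The NFI loci held fewer AP-1 matches than the peak lists as a whole. AP-1 is the family of Fos and Jun dimers, and its 7-base site was in 28 of the 301 NFI peaks of biosample 1 (9.30%, 6.51 to 13.1), against 18.1% of the list, and in 13 of the 126 of biosample 2 (10.3%, 6.13 to 16.9), against 21.6%. Among peaks more than 1 kb from any protein-coding start the shares were 10.5% (7.14 to 15.1) against 19.99% in biosample 1, and 13.4% (7.66 to 22.4) against 26.1% in biosample 2. Nearer to start sites they were 5.56% at the NFI loci and 5.64% in the list in biosample 1. The member with the fewest was Nfix, with 3 of 90 peaks in biosample 1 and 2 of 56 in biosample 2, against 12 of 83 and 4 of 28 at Nfib, 8 of 66 and 3 of 20 at Nfic, and 5 of 62 and 4 of 22 at Nfia. Only at Nfix did the interval lie below the share of the list in both biosamples (1.14 to 9.35 and 0.985 to 12.1). The member shares were not matched for place. Near start sites the share of the list was 5.64% in biosample 1 and 5.26% in biosample 2. At Nfix only 65 of 90 and 35 of 56 peaks lay over 1 kb from other genes' starts. The 2 biosamples are not separate counts either, since 49 of the 56 Nfix peaks of biosample 2 met a biosample 1 peak. The intervals of Nfib and Nfic covered that share in both biosamples. At Nfia it was covered in biosample 2 (7.31 to 38.5) but not in biosample 1 (3.49 to 17.5). Base composition also differed: the median GC content of the peaks was 51.3% at the NFI loci and 48.0% in the list of biosample 1, and 55.3% at Nfix. Away from start sites, in biosample 1, 11.8% of the NFI peaks under 50% GC held a match (7.04 to 19.2, against 20.9% of the list), and 9.24% of those with at least 50% GC (5.24 to 15.8, against 18.3%). In biosample 2 it was 7 of 35 NFI peaks under 50% GC (20%, 10.04 to 35.9, against 27.6% of the list), an interval that covers the share of the list, and 4 of 47 with at least 50% GC (8.51%, 3.36 to 19.9, against 23.6%).

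**Figure D5:**
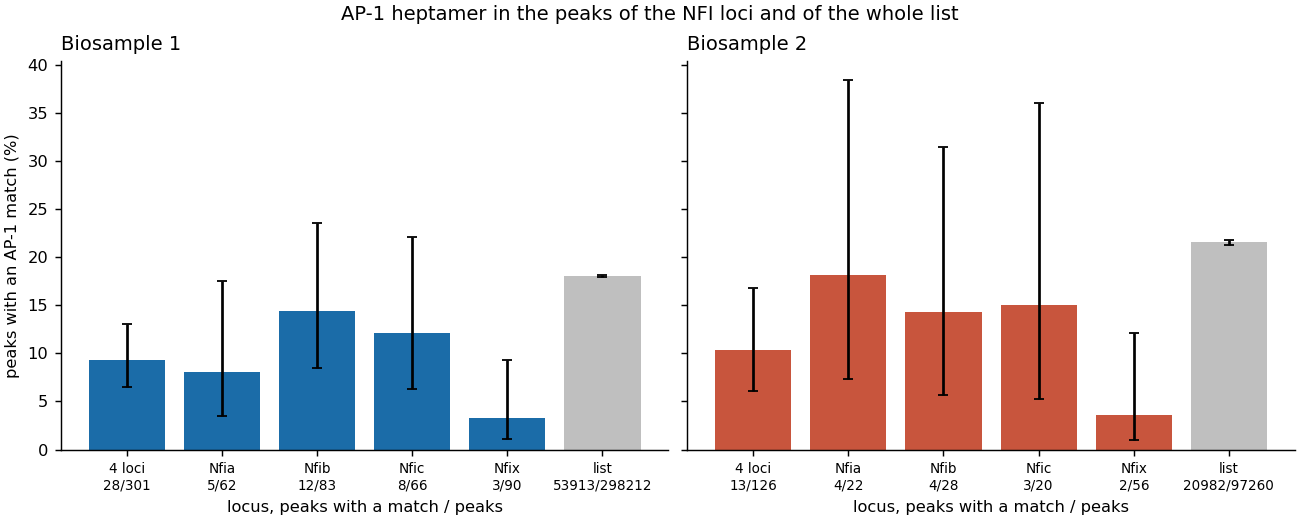
Share of peaks with an AP-1 match (%) at the 4 NFI loci together, at each locus and in the whole list (grey), for biosample 1 (left) and biosample 2 (right), with 95% Wilson intervals. In biosample 1 the 4 loci together are at 9.30% and the list at 18.1%, and Nfix has the fewest matches, with 3 in 90 peaks.

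The factors' own full recognition sequence is rare in both lists as a whole, and its half-site was at the NFI loci about as often as in the list. The full palindrome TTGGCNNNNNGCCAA was in 1 of 301 NFI peaks of biosample 1, the one downstream of Nfic printed above (67.8th percentile), and in 0 of 126 of biosample 2, against 0.0855% and 0.0565% of the lists. The half-site TTGGCA was in 12.3% of the NFI peaks (9.05 to 16.5) and 12.8% of the list in biosample 1, a difference that was not detectable at this number of peaks. RUNX matches were in 6.98% of the NFI peaks and 7.56% of the list, TEAD matches (CATTCCA or CATTCCT) in 8.31% and 10.1%, CCAAT boxes in 15.9% and 19%, and ETS matches in 1.99% and 1.38%, all in biosample 1. SP/KLF matches were in 9.97% of the NFI peaks (7.07 to 13.9) and 6.26% of the list, and 16 of these 30 peaks were at Nfix. Within 1 kb of a protein-coding start they were in 22.2% of the 72 NFI peaks (14.2 to 33.1) and 25.5% of the list. Further away they were in 6.11% of the 229 NFI peaks (3.68 to 10.0) and 3.30% of the list. These SP/KLF values are of biosample 1. In biosample 2, near starts, the share was 20.5% of 44 NFI peaks (11.2 to 34.5) and 34.8% of the list. Further away it was 14.6% of 82 NFI peaks (8.57 to 23.9) and 4.43% of the list. A C/EBP match (TTGCGCAA) was in none of the 301 NFI peaks, against 0.0647% of the list. A match is a run of letters and no evidence that a factor is bound.

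A list of genes linked to NFI factors, as partners, inducers or otherwise, and a list of glial genes they control, were described for context. Of the 9 linked genes, 8 had a start-site peak in both lists, against 51.8% of all genes. They were Nr3c1, the glucocorticoid receptor (97.2nd percentile in biosample 1 and 93.5th in biosample 2), Sox9, an inducer of Nfia in glia (97.2nd and 93.5th), Ezh2, a Polycomb methyltransferase (98.3rd and 97.6th), Ski, a co-regulator (94.7th and 84.2nd), Ebf2, a determinant of brown fat precursors (93.8th and 42.1st), Cebpb, an early adipogenic factor (90.6th and 57.3rd), Pparg, the main regulator of fat cell formation (80.0th and 42.1st), and Foxa1, a pioneer factor (60.3rd and 11.6th). Cebpa, a late adipogenic factor, had a peak in biosample 1 only (76.4th percentile). Of 5 glial genes, Apcdd1, a Wnt inhibitor, had a peak in both lists (94.7th and 67.7th), Fabp7 and S100b had one in biosample 1 only, and Gfap, a glial filament protein, and Mmd2 had none.

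By the mean difference of 4 gene ranks (locus density and strongest start-site percentile in each list), the genes most like the members were Usp32 (a mean difference of 0.715 percentile points) and Sec61a1 (1.39) for Nfia, Hp1bp3 (1.13) and Lamp2 (1.45) for Nfib, Rcc1 (0.786) and H13 (1.34) for Nfic, and Mrpl49 (0.747) and Fau (0.960) for Nfix. Both Fau and Mrpl49 lie on chromosome 19. Usp32, with a gene body of 156 kb, was the only one of the 8 above 100 kb.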

How the data were processed

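DNase-seq of 3T3-L1 cells was deposited as lists of peaks and hotspots on mm10, 1 of each per biosample. Per the file headers and the labels, the libraries of a biosample were combined into 1 alignment before calling; the aligner, caller and versions are not given in the sources used here, and the depth is unknown. The peak score is the value the authors deposited, without a definition, and it was used only as a midrank percentile. The hotspot value, read as a −log10 q of the authors' deposited lists, ran from 1.30 to a ceiling of 100 that 49.4% of biosample 1 and 42.8% of biosample 2 hotspots reached, and was not ranked.

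Start sites, exons and introns came from GENCODE M21 and sequence from RefSeq GRCm38.p6, inside whose chromosome lengths all intervals lay. Chromosomes 1 to 19, X and Y were used. Intervals were classed as start site (within 1000 bp), exon, intron or flank, and peaks overlapping by at least 1 bp were shared. Python 3.11.15, pandas 2.3.3 and pysam 0.24.0 were used, and the interval counting was tested on simulated data. With 1 list per biosample no test was possible, and values stand beside those of all genes or the whole list. The peaks named are each member's strongest start-site peak, its 3 intronic and 2 flank peaks highest by mean percentile of both lists among shared peaks (by biosample 1 where no more are shared), and the strongest biosample 2 peak without a partner. The start-site peaks of each group, the peaks of the Nfix run and the palindrome peak were named beside these after their values were seen. Members and gene lists were chosen with earlier results of these data known, and 1 listed gene is not reported here. Alternatives covered the window, flank, score and overlap limits.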

Additional observations from a re-analysis of the deposited data

How the results depend on the processing

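Of 62 alternative settings over 11 summary values, 50 left a count within 1.5 times its value or a share within its 95% interval, and 12 did not. All 4 members kept a start-site peak in both lists except when only the most upstream start was used, which left 2. With the stronger 50% of each list, 7 of the start sites had a peak in both lists, biosample 2 had 73 peaks in the loci, and 95.9% of these were shared. Gene bodies alone held 190 peaks of biosample 1, 75 peaks of biosample 2 and 65 hotspots of biosample 2, and 4 members were then above the median density in biosample 2. With the biosample 1 list shortened to its strongest peaks, as many as biosample 2 has, 140 of its peaks lay in the loci, 75% of them were shared, and 84.1% of the biosample 2 peaks were. Counting hotspots as partners made 100% of the biosample 2 peaks shared. In the whole list, a biosample 1 hotspot held 78.5% of the biosample 2 peaks without a peak partner. The share of peaks with an AP-1 match in biosample 1 was between 9.24% and 12% under all 6 alternatives, and the split by GC content among them was chosen after seeing the data. In windows of 300 bp it was 12%, against 21.5% of the list. No paired analysis was possible because the libraries of each biosample were pooled before calling, and for the same reason no library could be left out. The lists give no read counts, so how far depth sets the difference between the biosamples was not tested.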

Other observations

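Noncoding genes of GENCODE M21 that start inside the loci were described by the peaks near their starts, which are peaks already counted in the loci. At Nfix both had strong peaks. The long noncoding RNA gene Gm26664 had 3 peaks within 1 kb of its start in each list. Its strongest, at the 99.5th percentile in biosample 1 and the 99.6th in biosample 2, was the downstream flank peak of Nfix printed above. The gene 1700122E12Rik, close to Calr, had 2 peaks in biosample 1 and 3 in biosample 2. Its strongest were at the 99.9th percentile in each, the same percentiles as at the Calr start, so the 2 genes cannot be told apart here. The antisense gene Gm16104 inside Nfic had 2 peaks in biosample 1 (strongest at the 82.9th percentile) and 1 in biosample 2 (39.9th). Gm11266, which starts near the main Nfib starts on the opposite strand, had 1 peak in biosample 1 (67.8th percentile) and none in biosample 2. Neither noncoding gene that starts in the Nfia locus had a peak in either list.

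Peaks in repeat-masked sequence were fewer at the NFI loci than in the lists. More than 50% of the bases were masked in 13 of the 301 NFI peaks of biosample 1 (4.32%), against 10.8% of the list, and in 3 of the 126 of biosample 2 (2.38%), against 5.82%.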
